A study of Mus musculus with 32 samples.

Results

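Gene expression in tibialis anterior muscle of old mice that had received BI01 and were 35 days past a barium chloride injury (written BaCl in the labels) was compared with that in uninjured tibialis anterior of old mice given vehicle. All genes of the deposited count table with enough counts were included, 17121 of 54532, and 8 of the 32 libraries of the series entered the comparison, 4 in each group. The study measured messenger RNA in tibialis anterior, a fast muscle of the lower leg, in young and old C57BL/6J mice with or without injury, some of the old ones treated with BI01 and the rest with vehicle. The series calls BI01 a senolytic, that is, an agent against senescent cells, and its title names the contact between p53 and MDM2, the ubiquitin ligase that marks p53 for degradation, as what is inhibited. Besides the BI01 muscle at day 35 and the uninjured muscle, values are given for old vehicle muscle at day 35, for old BI01 muscle at day 7, and for young vehicle muscle at day 35 and without injury, each with 4 libraries. All of these animals are C57BL/6J with no genetic change named. There is no uninjured group with BI01, so the injury and the compound differ together in the main comparison and cannot be told apart within it. The sources used here do not give ages beyond young and old, the sex of the mice, or the dose and schedule of BI01. The uninjured columns carry the letters PBS and the name of the 35-day set, and whether PBS was injected is not stated.

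Barium chloride destroys muscle fibres within its reach and leaves much of the basement membrane, nerve and vessel network in place. Satellite cells, the stem cells of muscle, then rebuild the fibres by fusing and by passing through embryonic and neonatal forms of the contractile proteins, while macrophages clear debris and fibro-adipogenic progenitors lay down matrix. Day 35 is late in this course: fibres have usually regained their calibre, and what remains is remodelling of matrix, vessels and nerve contacts.

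Values are CPM, counts scaled to a library of 1000000, on library sizes scaled by TMM, a method that corrects for a few abundant genes, and 4 values in a row follow the libraries numbered 6, 7, 8 and 9 of a group. Log2 fold changes are BI01 day 35 over uninjured. Their standard error (SE) was worked out from the F-test of an edgeR quasi-likelihood model of all 32 libraries. A gene is called to rise or fall when its p-value from that model is under 0.05 after Benjamini-Hochberg adjustment across all 17121 genes. The 4 BI01 libraries held 16419816 to 16886978 counts and the 4 uninjured libraries 15404429 to 30439358, and the median gene had a 95% interval of ±0.602 on the log2 scale. The labels do not say that libraries came from separate animals, so p-values measure the spread between these libraries. The 16 fast-fibre genes, which define this muscle, summed to 207600 to 307600 CPM in BI01 muscle and 262600 to 269900 CPM in uninjured muscle. A library in each group stood apart. Uninjured library 7 held 422 CPM of embryonic myosin (Myh3) against 1.04 to 165 CPM in the other 3 uninjured libraries. BI01 library 7 held 65.3 CPM of Col1a1 against 224 to 389 CPM in the other 3 BI01 libraries. Results that rest on either are given without it. A fit without library 7 of both groups was not planned, and its libraries were picked by their values. It drops the lowest treated and the highest uninjured library for Col1a1, so more rises of such genes follow in part from that choice.

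Muscle of old BI01 mice at day 35 still differed from old uninjured muscle in 1386 genes, 8.1% of those tested. Of these, 776 rose (4.53%) and 610 fell (3.56%), with 749 and 577 of them protein-coding. Counts of calls in the gene lists below are to be read beside these shares. At least 2-fold changes were seen in 433 of the genes that rose and 274 of those that fell, and at least 4-fold changes in 65 and 111. Over all tested genes the median log2 fold change was 0.043. The 4 BI01 and 4 uninjured libraries did not overlap for 3261 genes, 19% of those tested, and for 1148 of the 1386 called genes. The count of calls was 798 without BI01 library 6, to 904 without BI01 library 8, to 873 without BI01 library 9, to 845 without uninjured library 8 and to 890 without uninjured library 9. It was 1318 without library 7 of both groups, 893 higher and 425 lower. In tissue RNA, fewer cells of a type and less RNA per cell cannot be told apart. The labels and processing notes do not state whether counting used strand, so reads of overlapping genes on opposite strands and of close paralogs are uncertain.

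The genes that rose most included a secreted neuronal protein, imprinted RNAs, basement membrane collagens and the apelin ligand with its receptor. The 12 largest rises and 12 largest falls were picked only among called genes whose groups did not overlap. For these genes the lack of overlap is part of the choice and not a result. Nrn1 (ENSMUSG00000039114, mm10 chromosome 13, bases 36725361 to 36735131) encodes neuritin, a membrane-anchored protein known for promoting neurite outgrowth. It had 3.67, 4.26, 6.498 and 5.67 CPM in BI01 muscle and 0.229, 0.358, 0 and 0.452 CPM in uninjured muscle. All 4 BI01 libraries lay above all 4 uninjured ones, and the log2 fold change was 4.11 ± 0.48 (SE; adjusted p = 1.99e-06). Apln, the peptide apelin, had 4.39, 5.38, 11.99 and 12.2 CPM in BI01 muscle and 1.75, 1.55, 1.28 and 1.99 CPM in uninjured muscle (log2 fold change 2.35 ± 0.59, adjusted p = 0.0118, and 0.247 with limma voom). Its receptor Aplnr, which in many tissues sits on endothelial cells, had 14.7, 13.1, 24.6 and 37.95 CPM in BI01 muscle and 7.55, 5.14, 5.12 and 4.16 CPM in uninjured muscle (2.05 ± 0.34, adjusted p = 0.000297). Neither gene's groups overlapped, and for both the 2 highest BI01 libraries were 8 and 9.

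Sntb1, Pamr1, Igsf9b and BC067074 also rose. Sntb1 encodes beta-1 syntrophin of the dystrophin complex and had 39.4, 28.6, 16.9 and 24.2 CPM in BI01 muscle and 5.64, 9.88, 5.92 and 2.98 CPM in uninjured muscle (2.15 ± 0.36, adjusted p = 0.000313). Pamr1, a secreted protease-like protein named for muscle regeneration, had 9.92, 2.46, 4.35 and 5.95 CPM in BI01 muscle and 1.75, 1.99, 0.8002 and 0.768 CPM in uninjured muscle (2.07 ± 0.40, adjusted p = 0.00102). The groups did not overlap for either gene. Igsf9b, an adhesion protein known from inhibitory synapses, rose by 2.00 ± 0.39 and BC067074, a gene with no assigned role here, by 2.10 ± 0.36. Glb1l2, a relative of lysosomal beta-galactosidase, rose by 2.31 ± 0.66 (adjusted p = 0.0267), and this call was lost without BI01 library 7 or 8 or uninjured library 7, 8 or 9 (adjusted p 0.0504 to 0.0859).

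**Figure D1:**
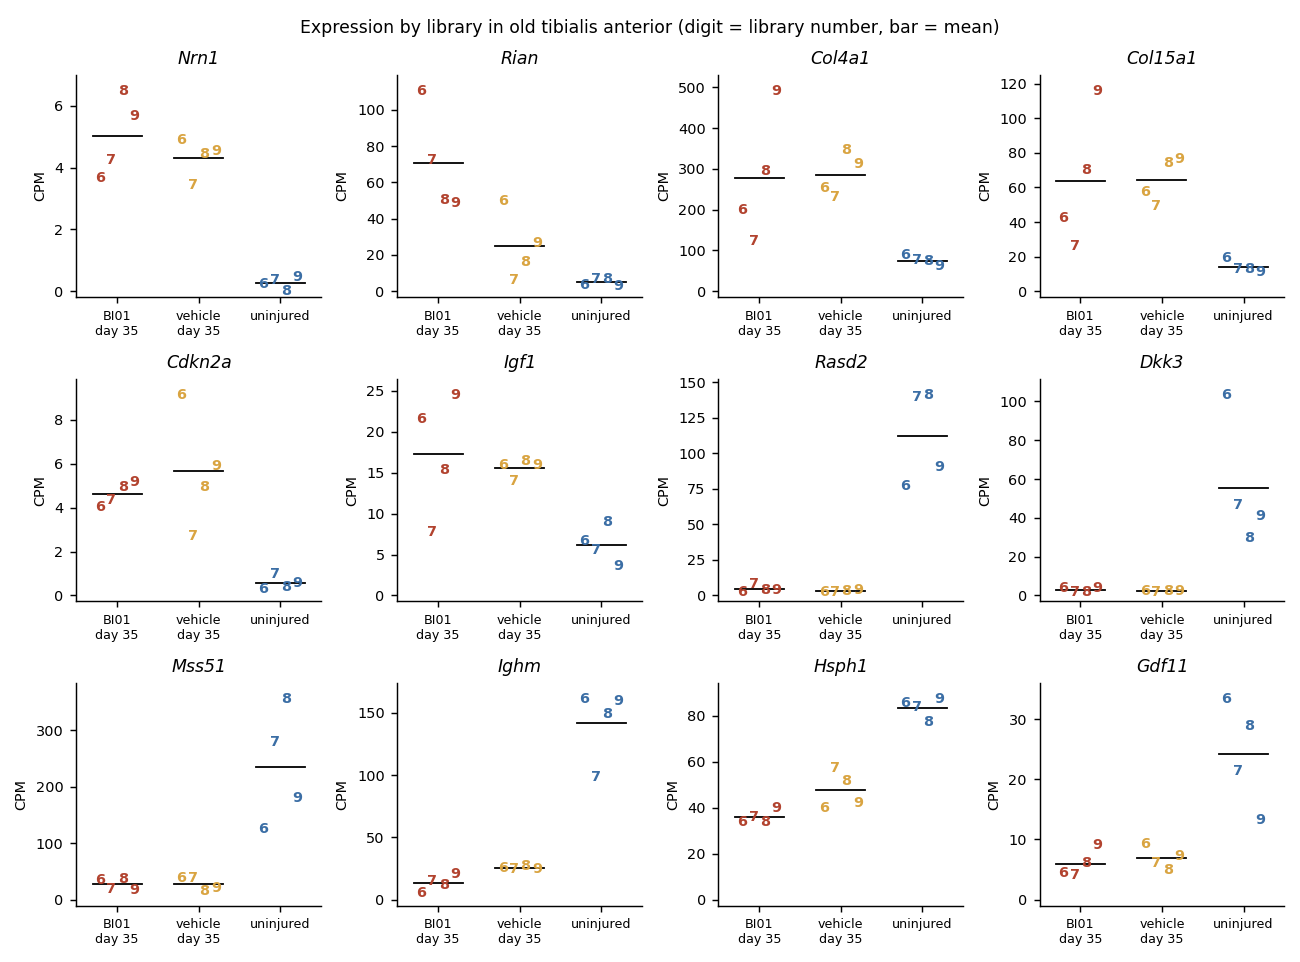
CPM of 12 genes in old muscle; in each panel BI01 day 35, vehicle day 35 and uninjured run from left to right, each digit is the library with that number and the bar is the mean of 4 libraries. The BI01 and vehicle libraries of Nrn1, Cdkn2a, Rasd2, Dkk3 and Mss51 lie on the same side of all uninjured libraries.

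Genes of the extracellular matrix made up the widest set of rises. Of the 31 matrix genes, 17 rose, 0 fell and 14 did not pass the test, and their median log2 fold change was 1.36. The chains of collagen IV, the network collagen of the basement membrane around fibres and capillaries, were among them. Col4a1 had 200.2, 122, 296 and 492 CPM in BI01 muscle and 88.3, 77.2, 75.4 and 60.8 CPM in uninjured muscle, with no overlap and a log2 fold change of 1.88 ± 0.27 (adjusted p = 4.00e-05). Its partner Col4a2 rose by 1.62 ± 0.23 (adjusted p = 2.93e-05). Col15a1, which links the basement membrane to the matrix around it, had 42.4, 26.1, 70.1 and 116 CPM in BI01 muscle and 19.2, 12.6, 13.04 and 11.03 CPM in uninjured muscle (2.19 ± 0.33, adjusted p = 8.86e-05). In each of these 3 collagens BI01 library 9 was the highest and BI01 library 7 the lowest of the treated libraries, yet library 7 still lay above every uninjured library.

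The fibrillar collagens rose as well, but their groups overlapped through the libraries numbered 7. Col1a1, a chain of collagen I, had 224, 65.3, 233 and 389 CPM in BI01 muscle and 39.7, 71.7, 39.2 and 14.6 CPM in uninjured muscle (2.46 ± 0.46, adjusted p = 0.0009802). BI01 library 7 lay below uninjured library 7 and above the other 3 uninjured libraries. Col3a1 of collagen III rose by 2.30 ± 0.44 and Col1a2 by 2.08 ± 0.41, with the same overlap. When the model was fitted to these 8 libraries alone, adjusted p was 0.0525 for Col3a1, 0.0731 for Col1a2, 0.0728 for Col6a2 and 0.0851 for Col6a3. The collagen VI chains Col6a1, Col6a2 and Col6a3 rose by 1.82 ± 0.33, 1.64 ± 0.36 and 1.47 ± 0.32. Sparc, a collagen-binding matrix protein, rose by 1.64 ± 0.27. Mmp2, a gelatinase that cuts matrix proteins, had 91.6, 30.5, 86.4 and 107 CPM in BI01 muscle and 23.5, 24.5, 18.4 and 11.7 CPM in uninjured muscle, again with no overlap (2.02 ± 0.29, adjusted p = 3.52e-05).

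Less abundant collagens rose as well. Col6a6 had 12.1, 6.42, 11.05 and 15.6 CPM in BI01 muscle and 2.36, 2.51, 2.32 and 1.04 CPM in uninjured muscle, and the groups did not overlap (2.46 ± 0.34, adjusted p = 2.28e-05). Col28a1, singled out after its values were seen, had 2.44, 2.39, 2.21 and 7.604 CPM in BI01 muscle and 0.305, 0.318, 0.2401 and 0.226 CPM in uninjured muscle (3.71 ± 0.51, adjusted p = 2.47e-05). Its log2 fold change was 3.07 without BI01 library 9, which was the highest library. Over all 43 collagen chains tested, a set also drawn up after the values were seen, 17 rose and 1 (Col11a2) fell, and the median log2 fold change was 1.18. The count of matrix genes that rose was 11 without BI01 library 9 and 11 without uninjured library 9, and 21 without library 7 of both groups. Loxl2 (a lysyl oxidase-like enzyme that crosslinks collagen), Mmp14 (a membrane-bound matrix protease) and the collagen V and XIV chains were the ones whose calls depended on 1 library. Loxl2 was lost without BI01 library 9 or uninjured library 8 or 9 (adjusted p 0.0538 to 0.0856) and Mmp14 without BI01 library 9 or uninjured library 9 (adjusted p 0.0717 to 0.0766). Col5a1 was lost without BI01 library 9 or uninjured library 9 (adjusted p 0.0634 to 0.0757), Col5a2 without BI01 library 9 or uninjured library 6, 8 or 9 (adjusted p 0.0541 to 0.101), Col5a3 without BI01 library 8 or 9 or uninjured library 6 or 9 (adjusted p 0.0541 to 0.105) and Col14a1 without BI01 library 6, 8 or 9 or uninjured library 7, 8 or 9 (adjusted p 0.05503 to 0.133). Among the chains outside the list, Col18a1 was lost without BI01 library 9 (adjusted p 0.0611) and Col11a2 without BI01 library 6, 8 or 9 or uninjured library 6, 7 or 9 (adjusted p 0.0649 to 0.166).

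Markers of the cells that make and line this matrix stood beside it. Of 15 markers of fibro-adipogenic progenitors, 4 rose (Col15a1, Cd34, Pdgfra and Gsn) and none fell, with a median of 0.69. Pdgfra, the growth factor receptor used to define these cells, had 22.2, 8.96, 22.2 and 26.1 CPM in BI01 muscle and 10.6, 10.4, 8.08 and 6.06 CPM in uninjured muscle, with BI01 library 7 inside the uninjured range (1.18 ± 0.23, adjusted p = 0.00154). Cd34, a surface protein of progenitors and endothelium, rose by 1.41 ± 0.27 and Gsn (gelsolin, an actin-severing protein) by 1.16 ± 0.27 (adjusted p = 0.07899 in the fit of 8 libraries). The 15 markers together summed to 654 to 1720 CPM in BI01 muscle and 478 to 914 CPM in uninjured muscle. Without BI01 library 7, 7 of the 15 markers rose, and without library 7 of both groups 8 did.

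Vessel genes rose in part. Pdgfrb, the receptor on pericytes and other mural cells, had 51.1, 33.2, 45.1 and 75.6 CPM in BI01 muscle and 21.9, 23.8, 18.01 and 18.1 CPM in uninjured muscle, with no overlap (1.32 ± 0.21, adjusted p = 0.000106). It was 1 of 4 genes that rose among 12 markers of smooth muscle and pericytes, whose median was 0.60. The others were Cspg4 (0.96; lost without BI01 library 9 or uninjured library 9 (adjusted p 0.0642 to 0.0787)), Notch3 (0.76; lost without BI01 library 9 or uninjured library 6, 8 or 9 (adjusted p 0.0694 to 0.217)) and Rgs5 (0.72; lost without BI01 library 6, 8 or 9 or uninjured library 6, 7, 8 or 9 (adjusted p 0.06705 to 0.169)). The smooth muscle contractile genes Acta2, Myh11 and Tagln did not pass the test, and the 12 markers summed to 4627 to 6092 CPM in BI01 muscle and 5447 to 7027 CPM in uninjured muscle.

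Of 12 endothelial markers, 4 rose and none fell, with a median of 0.63. These were Pecam1 and Cdh5, adhesion proteins of endothelial junctions, with log2 fold changes of 0.76 and 0.78, Cldn5, a tight-junction protein (0.97), and Tek, the angiopoietin receptor (0.63). None of the 4 was called without BI01 library 9 (adjusted p 0.0527 for Pecam1, 0.0931 for Cdh5, 0.102 for Cldn5 and 0.166 for Tek). Cldn5 was also lost without BI01 library 6, 8 or 9 or uninjured library 6 or 9 (adjusted p 0.0715 to 0.111), and Tek without BI01 library 6, 8 or 9 or uninjured library 7, 8 or 9 (adjusted p 0.0542 to 0.166). Agrn, the basement membrane proteoglycan agrin that organises neuromuscular junctions, rose by 0.64 ± 0.14 (adjusted p = 0.00365). It was the only rise among 18 genes of the neuromuscular junction and denervation, of which 1 (Chrng, described below) fell. The median of that list was -0.42. Of 10 adipocyte markers 1 rose and none fell, but the median was 1.77 and the sums did not overlap, at 476 to 626 CPM in BI01 muscle and 243 to 358 CPM in uninjured muscle. The count was 2 without BI01 library 7 and without uninjured library 6. The gene called with all libraries was Fabp4, a fatty acid carrier also made by capillary endothelium, at 172, 143, 202 and 163 CPM in BI01 muscle and 82.8, 58.05, 74.8 and 80.9 CPM in uninjured muscle (1.20 ± 0.30, adjusted p = 0.0122).

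**Figure D2:**
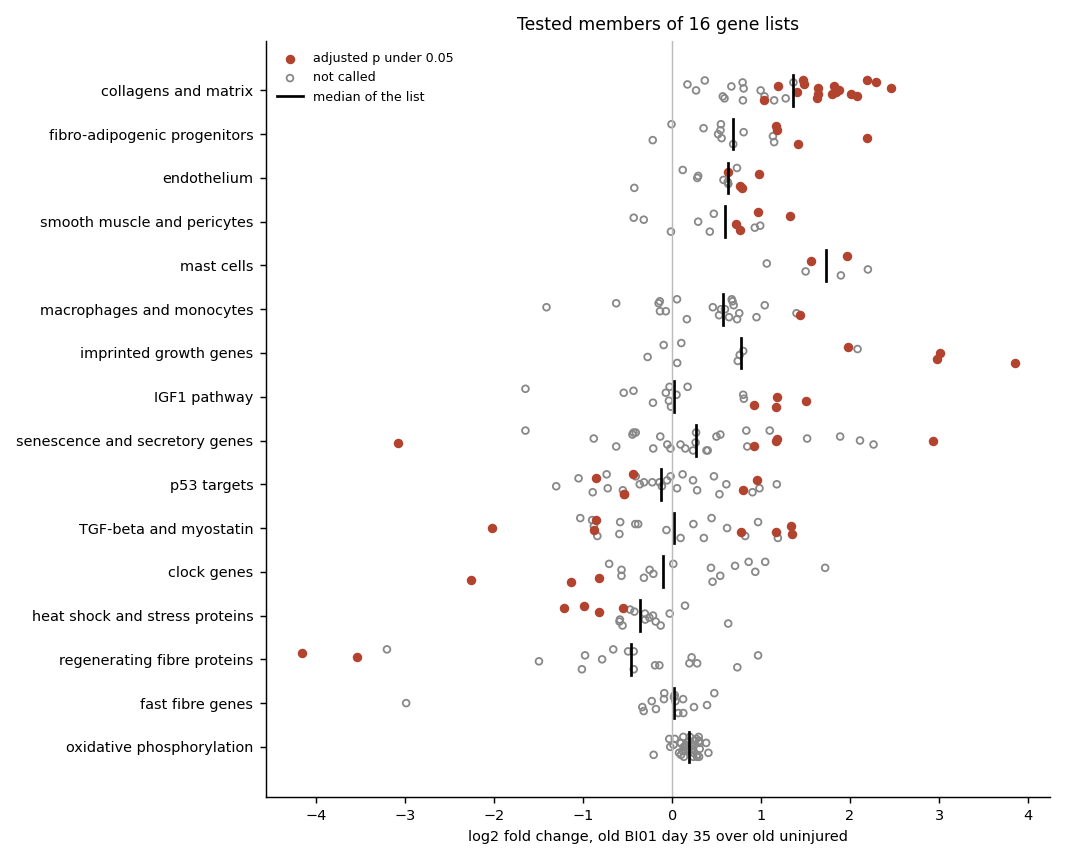
Log2 fold change of old BI01 day 35 over old uninjured muscle for each tested member of 16 gene lists (x axis), with called genes filled and the list median as a vertical line. Matrix genes have a median of 1.36 with every filled point to the right of 0, while fast-fibre and oxidative phosphorylation genes hold no filled point.

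Imprinted genes, of which only the maternal or the paternal copy is active, included large rises of RNAs that code for no protein. Of 12 imprinted growth genes tested, 4 rose and none fell, with a median of 0.78. Rian and Meg3 are long RNAs transcribed from the maternal copy of the Dlk1-Dio3 region of chromosome 12, which also carries a large cluster of microRNAs. Rian (ENSMUSG00000097451, mm10 chromosome 12, bases 109603940 to 109661716) had 111, 72.4, 50.3 and 48.6 CPM in BI01 muscle and 3.43, 6.53, 6.72 and 2.85 CPM in uninjured muscle, with no overlap and a log2 fold change of 3.85 ± 0.60 (adjusted p = 0.000179). Meg3 had 105, 76.6, 56.5 and 45.8 CPM in BI01 muscle and 4.96, 13.5, 10 and 7.32 CPM in uninjured muscle (2.98 ± 0.53, adjusted p = 0.000672). In both RNAs BI01 library 6 was the highest and libraries 8 and 9 the lowest of the treated group, and all 4 lay well above the highest uninjured library.

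Mirg, the host RNA of microRNAs in the same region, rose by 3.01 ± 0.71 (adjusted p = 0.00734, and 0.112 with limma voom). Among the paternally expressed protein-coding genes of the region, Dlk1 (2.08 ± 0.67, adjusted p = 0.0508) and Rtl1 (1.99 ± 0.73, adjusted p = 0.0926) did not pass the test at levels of at most 1.798 CPM. Of 8 transcripts of the region tested, a set drawn up after the values were seen, 3 rose and none fell. Their median was 2.04, and the lowest, which was not called, was at -3.88. Peg3 is a paternally expressed zinc finger gene of chromosome 7, and it had 293, 329, 204 and 147 CPM in BI01 muscle and 63.2, 94.3, 45.4 and 44.7 CPM in uninjured muscle (1.98 ± 0.31, adjusted p = 9.72e-05). H19 and Igf2 were not called: uninjured library 7 was the highest of all 8 libraries for H19, at 1080 CPM. Without either library 7 alone, 6 of the 12 genes rose, and without both, 9 did.

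Genes of growth factor signalling moved in both directions. Igf1, the growth factor that drives fibre growth, had 21.6, 7.77, 15.3 and 24.5 CPM in BI01 muscle and 6.64, 5.53, 8.96 and 3.66 CPM in uninjured muscle (1.5 ± 0.31, adjusted p = 0.00252), and only BI01 library 7 lay inside the uninjured range. Of 16 IGF1 pathway genes 4 rose and none fell, with a median of 0.02, and the other 3 were the binding proteins Igfbp3 (1.18), Igfbp7 (1.17) and Igfbp4 (0.92). The Igfbp4 call was lost without BI01 library 6, 8 or 9 or uninjured library 7, 8 or 9 (adjusted p 0.0581 to 0.167). The receptor Igf1r (0.17) and the kinase genes Akt1 and Mtor did not pass the test.

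Of 24 genes of TGF-beta and myostatin signalling, 3 fell and 4 rose, with a median of 0.02. Gdf11, a ligand closely related to myostatin, had 4.39, 4.03, 6.096 and 9.11 CPM in BI01 muscle and 33.3, 21.4, 28.8 and 13.2 CPM in uninjured muscle, with no overlap (-2.03 ± 0.35, adjusted p = 0.000335). The receptor Tgfbr1 had 29.3, 32.9, 27.3 and 30.2 CPM in BI01 muscle and 45.9, 53.5, 55.9 and 64.6 CPM in uninjured muscle (-0.88 ± 0.20, adjusted p = 0.00522). Smad7, an inhibitor of the pathway, fell by 0.86 ± 0.21 on the log2 scale. Those that rose were Fst (follistatin, which binds and blocks myostatin; 1.34, lost without BI01 library 9 (adjusted p 0.05095)), Ltbp4 (a latent TGF-beta binding protein; 0.77, lost without BI01 library 9 or uninjured library 7 or 9 (adjusted p 0.05503 to 0.174)), Fstl1 (a secreted follistatin-like protein; 1.34, lost without BI01 library 6, 8 or 9 or uninjured library 8 or 9 (adjusted p 0.0516 to 0.143)) and Acvr2b (a receptor for myostatin and activins; 1.17, lost without BI01 library 6, 7 or 8 or uninjured library 6, 7 or 8 (adjusted p 0.0506 to 0.104)). Mstn itself did not pass the test (log2 fold change -1.03).

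Cdkn2a, a cell cycle gene of senescence (ENSMUSG00000044303, mm10 chromosome 4, bases 89274471 to 89294653), remained above the uninjured level in BI01 muscle. The gene encodes the cell cycle inhibitor p16INK4a and, from a start further upstream and another reading frame, p19ARF, which binds MDM2 and so spares p53. It had 4.03, 4.33, 4.96 and 5.16 CPM in BI01 muscle and 0.305, 0.995, 0.4001 and 0.588 CPM in uninjured muscle. All treated libraries lay above all uninjured ones, and the log2 fold change was 2.93 ± 0.52 (adjusted p = 0.000465). Counts per gene do not say from which start these transcripts came. The bases before both starts are shown because the products differ in their link to p53, with the cytosine-guanine pairs in capitals, from RefSeq on GRCm38.p6, minus strand of chromosome 4, 5′ to 3′. Start 1 is the upstream one (chr4:89294654-89294869) and start 2 the downstream one (chr4:89282193-89282442).
Cdkn2a start 1: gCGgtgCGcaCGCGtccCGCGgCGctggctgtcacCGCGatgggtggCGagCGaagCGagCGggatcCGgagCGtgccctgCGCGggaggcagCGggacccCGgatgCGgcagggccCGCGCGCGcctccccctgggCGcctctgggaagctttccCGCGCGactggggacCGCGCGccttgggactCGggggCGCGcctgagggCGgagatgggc
Cdkn2a start 2: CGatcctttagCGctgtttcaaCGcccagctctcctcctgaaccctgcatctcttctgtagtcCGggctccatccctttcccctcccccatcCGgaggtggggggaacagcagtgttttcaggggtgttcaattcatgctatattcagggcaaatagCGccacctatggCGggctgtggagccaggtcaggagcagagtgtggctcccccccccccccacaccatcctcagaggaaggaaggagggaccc
The first stretch holds 35 such pairs and its full window of 250 bases 40, the second holds 7, and the median over 32851 RefSeq promoter windows of that length was 6. These counts describe the sequence only.

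The other genes of senescence and of p53 did not move as 1 group. Of 31 genes of senescence and its secretory products, 4 rose (Cdkn2a, Igfbp3, Igfbp7 and Igfbp4) and 1 fell, with a median of 0.27. The gene that fell was the chemokine Cxcl10, with 0.144, 0.299, 0.268 and 0.144 CPM in BI01 muscle and 0.305, 0.995, 0.4801 and 5.33 CPM in uninjured muscle (-3.08 ± 0.86, adjusted p = 0.0237). Uninjured library 9 stood far above the other uninjured libraries, and without it the log2 fold change was -1.54. The Cxcl10 call was lost without BI01 library 6, 8 or 9 or uninjured library 9 (adjusted p 0.0591 to 0.3395). Cdkn1a, which encodes the p53 target p21, had 54.7, 27.6, 22.5 and 33.1 CPM in BI01 muscle and 25.7, 79.8, 39.4 and 37.7 CPM in uninjured muscle (-0.41 ± 0.41, adjusted p = 0.646), with overlapping groups and no call. Its sign turned without uninjured library 7 (0.0045) and without library 7 of both groups (0.096).

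Of 30 p53 targets, 2 rose and 4 fell, with a median of -0.13. Trp53inp1, a stress protein that promotes p53 activity and autophagy, had 35.9, 29.7, 24.8 and 22.3 CPM in BI01 muscle and 13.7, 15.8, 19.1 and 16.3 CPM in uninjured muscle (0.79 ± 0.18, adjusted p = 0.00471). Mdm2, both a p53 target and its ubiquitin ligase, had 62.6, 67.1, 60.4 and 65.1 CPM in BI01 muscle and 73.7, 81.9, 88.8 and 100.5 CPM in uninjured muscle (-0.44 ± 0.12, adjusted p = 0.0257), without overlap but by a small step. The Mdm2 call was lost without BI01 library 6, 8 or 9 or uninjured library 8 or 9 (adjusted p 0.0551 to 0.126). Trp53 itself was not called (-0.34 ± 0.18, adjusted p = 0.281). The other targets that fell were Polk, a translesion DNA polymerase (-0.85; lost without BI01 library 6, 8 or 9 or uninjured library 8 or 9 (adjusted p 0.0667 to 0.0856)), Rrm2b, a ribonucleotide reductase subunit (-0.55; lost without BI01 library 6 or 9 or uninjured library 6 or 9 (adjusted p 0.0567 to 0.06904)), and Aen, an exonuclease (-0.54; lost without BI01 library 6, 7, 8 or 9 or uninjured library 6, 8 or 9 (adjusted p 0.0515 to 0.121)). Sesn1, a stress-induced regulator of mTORC1, rose by 0.95 through BI01 library 6 at 81.8 CPM, and its log2 fold change was 0.39 without that library. The Sesn1 call was lost without BI01 library 6 or uninjured library 6, 7, 8 or 9 (adjusted p 0.0685 to 0.4495). No p53 target fell without BI01 library 6, without BI01 library 9 or without uninjured library 9.

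The 12 largest falls, picked only among genes whose groups did not overlap, included Rasd2, Dkk3 and Mss51. Rasd2, a small GTPase of the Ras family best known from the striatum (gene ENSMUSG00000034472, mm10 chromosome 8, bases 75213944 to 75224113), had 2.16, 7.84, 3.88 and 3.802 CPM in BI01 muscle and 77.2, 139.6, 141 and 90.6 CPM in uninjured muscle. Every treated library was far under every uninjured one, and the log2 fold change was -4.67 ± 0.69 (adjusted p = 0.000102). Dkk3, a secreted protein of the Dickkopf family, had 3.67, 1.57, 1.54 and 3.59 CPM in BI01 muscle and 103, 46.7, 29.8 and 40.8 CPM in uninjured muscle (-4.41 ± 0.40, adjusted p = 3.62e-08). Mss51, a mitochondrial protein of skeletal muscle that is known to restrain oxidative metabolism, had 34.7, 19.5, 37.3 and 16.6 CPM in BI01 muscle and 125, 279, 356 and 179.5 CPM in uninjured muscle (-3.12 ± 0.35, adjusted p = 1.86e-06). For both, every treated library lay below every uninjured one.

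Bdh1, Ces1d and Esrrb were also among the largest falls. Bdh1, the mitochondrial enzyme that interconverts the ketone bodies, had 0.144, 0.149, 0.335 and 0.144 CPM in BI01 muscle and 15.7, 3.38, 6.08 and 7.78 CPM in uninjured muscle (-5.35 ± 0.98, adjusted p = 0.000672). Ces1d, a carboxylesterase that hydrolyses lipids, had 0.935, 6.05, 4.82 and 4.09 CPM in BI01 muscle and 50.4, 40.1, 36.6 and 45.8 CPM in uninjured muscle (-3.44 ± 0.62, adjusted p = 0.000722). Esrrb, an orphan nuclear receptor related to the regulators of oxidative genes, had 0.432, 0.299, 0.536 and 0.861 CPM in BI01 muscle and 8.54, 3.46, 5.12 and 4.97 CPM in uninjured muscle (-3.35 ± 0.59, adjusted p = 0.000416). The 3 genes had no overlap between groups. The lists of 35 oxidative phosphorylation genes and 22 genes of fatty acid use held no called gene, and their medians were 0.19 and -0.01.

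Kcnab1, a regulatory subunit of voltage-gated potassium channels, had 1.079, 2.46, 1.47 and 1.004 CPM in BI01 muscle and 12.5, 18.3, 18.9 and 13.02 CPM in uninjured muscle (-3.38 ± 0.43, adjusted p = 8.46e-06). Slc15a5, of the peptide transporter family, was at -3.86 and Htra4, a secreted serine protease, at -3.78 on the log2 scale. Tmem132b, a membrane protein of the nervous system, fell with a log2 fold change of -4.34, which was -5.30 without BI01 library 7. Syt9, a calcium sensor of vesicle release, was at -4.24 with all libraries and -6.03 without BI01 library 7. Odf3l2, of a sperm tail protein family, was at -3.93 and -4.99 in the same order. In these 3 genes BI01 library 7 was the highest of the treated libraries and still lay under all uninjured ones.

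With all libraries, the genes called among heat shock proteins and clock genes were all lower. Of 18 heat shock and stress proteins 4 fell and none rose, with a median of -0.37. Their summed level was 3782 to 4273 CPM in BI01 muscle and 5338 to 5932 CPM in uninjured muscle. Hsph1, a large chaperone that assists HSP70 as a nucleotide exchange factor, had 33.6, 36.1, 33.8 and 40.03 CPM in BI01 muscle and 85.4, 83.97, 77.5 and 87.3 CPM in uninjured muscle (-1.22 ± 0.17, adjusted p = 2.08e-05). The step between the groups was wide against the spread inside each of them. The other 3 were the small heat shock proteins Hspb8 (-0.99; lost without BI01 library 6, 8 or 9 or uninjured library 7 or 8 (adjusted p 0.06199 to 0.0823)) and Cryab (-0.82; lost without BI01 library 6, 7 or 9 or uninjured library 6, 7 or 9 (adjusted p 0.0556 to 0.129)) and the chaperone Hsp90ab1 (-0.56; lost without BI01 library 8 or 9 or uninjured library 6, 7 or 9 (adjusted p 0.0565 to 0.157)). The count of falls was 1 without BI01 library 9, without uninjured library 7 and without library 7 of both groups, and 2 or 3 without any other single library.

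Genes of this family are known to be switched on through heat shock elements, so 30 bases before the Hsph1 start are shown with a motif match in capitals (RefSeq, GRCm38.p6, chr5:149636351-149636380, minus strand, 5′ to 3′).
Hsph1: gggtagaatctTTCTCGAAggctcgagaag
The motif searched was TTCNNGAA or GAANNTTC on both strands, its match began 33 bases before the start, and 12.8% of 32851 promoter windows of 250 bases held at least 1 match. In the annotation of the deposited counts Hsph1 begins at base 149636376, so most of these bases, with the match, lie inside the gene there. The match describes the letters only.

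Of 18 clock genes 3 fell and none rose, with a median of -0.10, and the count of 3 was the same without any single library. Without BI01 library 9, 1 clock gene rose. Arntl, the BMAL1 subunit that activates the clock's targets, had 15.6, 19.6, 22.8 and 30.2 CPM in BI01 muscle and 52.3, 45.7, 51.4 and 44.3 CPM in uninjured muscle (-1.13 ± 0.27, adjusted p = 0.00749). Hlf, a transcription factor driven by the clock, had 2.73, 4.85, 2.75 and 2.37 CPM in BI01 muscle and 12.1, 15.2, 17.1 and 16.6 CPM in uninjured muscle (-2.27 ± 0.41, adjusted p = 0.000509). Cry1, a repressor in the clock, fell by 0.83 ± 0.19 on the log2 scale (adjusted p = 0.00586). The hour at which tissue was taken is not given in the labels, and its part in these values was not tested.

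Ighm, the constant chain of IgM made by B and plasma cells, had 4.96, 15.2, 11.7 and 20.8 CPM in BI01 muscle and 161, 98.2, 149 and 159 CPM in uninjured muscle (-3.43 ± 0.40, adjusted p = 3.33e-06). The highest treated library was far under the lowest uninjured one. The other 4 tested markers of B and plasma cells, Cd79b, Igkc, Mzb1 and Jchain, did not pass the test, with log2 fold changes of 0.64 to 1.40. Among other cell types, 2 of 6 mast cell markers rose, led by Kit, the stem cell factor receptor, with 4.17, 3.29, 3.42 and 5.38 CPM in BI01 muscle and 0.534, 0.995, 0.8002 and 1.67 CPM in uninjured muscle (1.97 ± 0.36, adjusted p = 0.000674). The mast cell protease Cpa3 was the other (1.56) and was lost without BI01 library 6, 8 or 9 or uninjured library 7, 8 or 9 (adjusted p 0.102 to 0.187). Of 22 macrophage and monocyte markers only Cd14 rose (1.43; lost without BI01 library 6 or uninjured library 9 (adjusted p 0.0527 to 0.102)), with a list median of 0.57 and sums of 101 to 432 CPM in BI01 muscle and 77.9 to 455 CPM in uninjured muscle. Without either library 7 alone, 2 of these markers rose, and without both, 6 did. The 18 markers of T and NK cells, 4 of neutrophils and 6 of erythroid cells held no called gene.

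Cells of tendon and nerve gave 1 call each, both falls, while the list medians were 0.41 and 0.13, in the opposite direction. Over all tested genes 8.1% were called, so 1 call in a list of 10 or 11 genes lies near that share. Scx, the transcription factor of tendon cells, had 3.16, 3.81, 5.83 and 5.67 CPM in BI01 muscle and 11.4, 19.8, 14.3 and 8.36 CPM in uninjured muscle (-1.54 ± 0.29, adjusted p = 0.000834), while the 9 other tendon genes did not pass the test. Mbp, the myelin basic protein of Schwann cells, had 5.04, 2.24, 4.15 and 5.38 CPM in BI01 muscle and 11.8, 10.7, 8.48 and 10.1 CPM in uninjured muscle (-1.29 ± 0.28, adjusted p = 0.00365), while the 10 other Schwann cell genes did not. Among 27 cell cycle genes only Aurka, a mitotic kinase, fell, at 1.94, 6.27, 4.02 and 2.73 CPM in BI01 muscle and 13.8, 13.7, 15.2 and 16.6 CPM in uninjured muscle (-1.99 ± 0.38, adjusted p = 0.000982). The median of the list was 0.56, so its direction was opposite to that of Aurka.

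Of 18 proteins of regenerating fibres, 2 fell, none rose and 16 did not pass the test, with a median of -0.46. Their sums were 3404 to 5147 CPM in BI01 muscle and 4195 to 5881 CPM in uninjured muscle. Myh3, the embryonic myosin heavy chain, had 9.42, 1.27, 13.1 and 12.7 CPM in BI01 muscle and 66.3, 422, 165 and 1.04 CPM in uninjured muscle (-4.16 ± 1.07, adjusted p = 0.0154). Uninjured library 7 was the highest of the 8 and uninjured library 9 the lowest. Without uninjured library 7 the log2 fold change was -3.08 (adjusted p = 0.0720), and without BI01 library 6 the adjusted p was 0.0546. Tnnt2, the embryonic and cardiac troponin T, had 2.37, 1.79, 6.56 and 1.86 CPM in BI01 muscle and 14.1, 108, 23.05 and 2.396 CPM in uninjured muscle (-3.55 ± 0.89, adjusted p = 0.0125), and the log2 fold change was -2.03 without uninjured library 7 and -4.21 without BI01 library 8. The Tnnt2 call was lost without BI01 library 6 or 9 or uninjured library 7 (adjusted p 0.05095 to 0.138). Myh3 and Tnnt2 were the genes that fell. The count of them was 0 without uninjured library 7 and without BI01 library 6, 1 without BI01 library 9 and 5 without uninjured library 9. Without library 7 of both groups none fell and 1 rose.

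The same libraries set the values of other genes of young fibres. Chrng, the fetal subunit of the acetylcholine receptor, fell with a log2 fold change of -3.91 ± 0.92 (adjusted p = 0.00816), and this was -2.17 (adjusted p = 0.115) without uninjured library 7. Mymk, the fusion protein myomaker, was at -3.21, and at -1.63 without uninjured library 7, and its call was lost without BI01 library 6, 7 or 9 or uninjured library 7 (adjusted p 0.0554 to 0.247). The slow troponin Tnnt1 was at -3.33, at -1.58 without uninjured library 7 and at -4.57 without BI01 library 8, and its call was lost without BI01 library 6, 7 or 9 or uninjured library 6 or 7 (adjusted p 0.0542 to 0.414). It was the only one of 12 slow-fibre genes called, against 5 without uninjured library 9. Myod1, a master regulator of the myogenic lineage, was steadier, at 22.2, 23.4, 27.0 and 29.8 CPM in BI01 muscle and 50.4, 56.7, 39.8 and 34.7 CPM in uninjured muscle (-0.83 ± 0.20, adjusted p = 0.00823). Its groups did not overlap and its call held without any single library, but not without library 7 of both groups (log2 fold change -0.66, adjusted p = 0.0772). Spry1, an inhibitor of growth factor signalling that keeps satellite cells quiet, rose by 0.71, lost without BI01 library 6, 8 or 9 or uninjured library 6, 8 or 9 (adjusted p 0.0588 to 0.1703), and Pax7 (0.60), the marker of satellite cells, did not pass the test. Whether fibre regrowth was under way in the labelled uninjured library 7 was not tested.

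**Figure D3:**
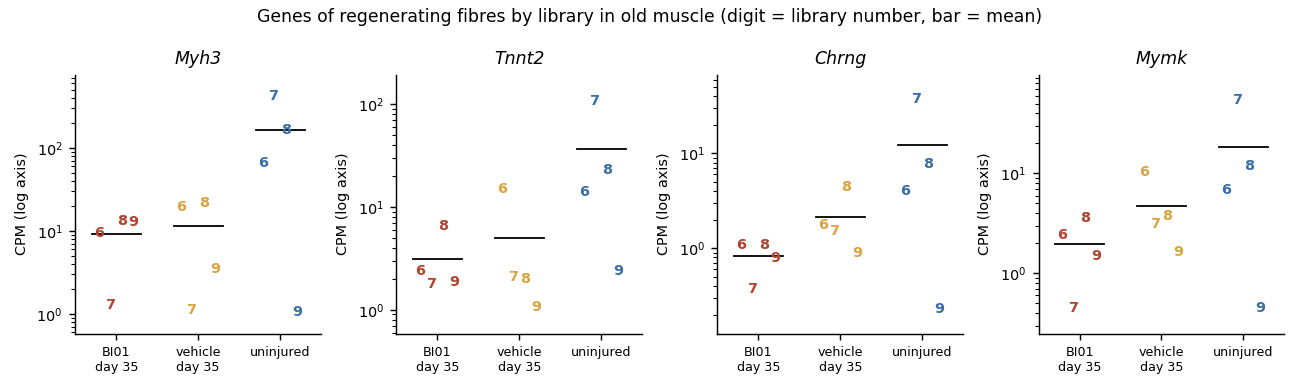
CPM on a log axis of 4 genes of regenerating fibres in old muscle; each panel has BI01 day 35, vehicle day 35 and uninjured from left to right, digits are library numbers and bars are means of 4 libraries. Uninjured library 7 is the highest in every panel, at 422 CPM for Myh3. Uninjured library 9, at 1.04 CPM for Myh3, is the lowest of the uninjured libraries in every panel.

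The contractile and metabolic core of the muscle held few calls. None of 16 fast-fibre genes, 21 genes of glycolysis and glycogen, 21 of calcium handling, 19 of cholesterol synthesis and uptake or 16 of antigen presentation passed the edgeR test with all libraries, with medians of 0.02, 0.11, -0.08, 0.02 and 0.40. Without library 7 of both groups 3 genes of antigen presentation and 1 of glycolysis and glycogen rose. Without uninjured library 7 alone 1 gene of glycolysis and glycogen rose, and without BI01 library 7 alone 1 cholesterol gene fell. Among fast-fibre genes 1 fell without uninjured library 7, 8 or 9. In calcium handling 1 gene fell without BI01 library 6 or uninjured library 6, and 2 fell without uninjured library 9. There 1 rose without BI01 library 8. Sqstm1, an autophagy receptor, fell by 0.57 on the log2 scale as the only call among 18 atrophy genes and was lost without BI01 library 6, 7, 8 or 9 or uninjured library 6, 7, 8 or 9 (adjusted p 0.0645 to 0.1795). Ddx58, the RNA sensor RIG-I, rose by 0.76 among 24 interferon response genes, whose median was 0.41, and was lost without BI01 library 6, 8 or 9 or uninjured library 8 or 9 (adjusted p 0.0931 to 0.176). Without uninjured library 7, 4 interferon response genes rose, without BI01 library 7, 2 did, and without both, 6 did. The complement genes C5ar1 and Cfb rose among 16 at mean levels of 1.96 and 0.424 CPM in BI01 muscle, and were lost without BI01 library 6 or 8 or uninjured library 6, 7, 8 or 9 (adjusted p 0.0582 to 0.305) for C5ar1 and without BI01 library 6, 8 or 9 or uninjured library 6, 7, 8 or 9 (adjusted p 0.06396 to 0.146) for Cfb. The complement list held 4 rises without BI01 library 7, 0 without uninjured library 7 and 3 without both. C5ar1 was at 1.95, and at 1.30 without BI01 library 6. Among 19 immediate early genes Jun fell (-0.78; lost without BI01 library 6 or 8 or uninjured library 7 or 8 (adjusted p 0.0606 to 0.111)), and Ier2 (0.76; lost without BI01 library 6, 8 or 9 or uninjured library 6, 7 or 9 (adjusted p 0.0531 to 0.172)) and Fosl2 (0.82; lost without BI01 library 6, 7, 8 or 9 or uninjured library 6, 8 or 9 (adjusted p 0.0679 to 0.191)) rose.

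Old vehicle muscle at day 35 shows how much of this was also present without BI01. Old vehicle muscle differed from the same 4 uninjured libraries in 966 genes (5.64% of those tested), 543 higher (3.17%) and 423 lower (2.47%). The count of 966 was 556 without uninjured library 8, 635 without uninjured library 9 and 616 without vehicle library 7. Since the uninjured libraries are shared, the fold changes are only set side by side. Nrn1 was at 4.11 in BI01 muscle and 3.89 in vehicle muscle, Cdkn2a at 2.93 and 3.22, Col4a1 at 1.88 and 1.92, Mmp2 at 2.02 and 2.05, Dkk3 at -4.41 and -4.60, Rasd2 at -4.67 and -5.21, and Mss51 at -3.12 and -3.05. The matrix list had a median of 1.36 in BI01 muscle and 1.30 in vehicle muscle, with 17 and 18 genes that rose. Myh3 was at -4.16 and -3.84 in the same order, and the regenerating-fibre list had 2 and 2 genes that fell.

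Tested directly, BI01 muscle did not differ from vehicle muscle at day 35 in any gene by the edgeR test, 0% of those tested. The smallest adjusted p was 0.142, and 530 genes (3.1% of those tested) had an unadjusted p under 0.05. DESeq2 called 12 genes (2 higher and 10 lower) and limma voom called 0, with 374 at an unadjusted p under 0.05. For Cdkn2a the difference between BI01 and vehicle muscle was -0.29 on the log2 scale with a 95% interval of -1.23 to 0.64, from 4.03, 4.33, 4.96 and 5.16 CPM in BI01 muscle and 9.15, 2.702, 4.92 and 5.91 CPM in vehicle muscle. These libraries overlapped, and the interval holds differences in both directions. For Cdkn1a it was -0.30 (-1.15 to 0.55), for Mdm2 -0.18 (-0.43 to 0.08), for Col4a1 -0.04 (-0.58 to 0.50) and for Nrn1 0.22 (-0.59 to 1.02).

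Several named genes, picked here because their intervals left out 0, did not pass the adjustment over all genes. Rian was 1.51 higher in BI01 than in vehicle muscle (0.40 to 2.62; adjusted p = 1.00), with 111, 72.4, 50.3 and 48.6 CPM in BI01 muscle and 49.7, 6.26, 16.1 and 26.8 CPM in vehicle muscle. Meg3 was 1.19 higher (0.17 to 2.22; adjusted p = 1.00) and Peg3 0.64 higher (0.03 to 1.25; adjusted p = 1.00). Myod1 had a difference of -0.67 (-1.08 to -0.26; adjusted p = 1.00), with 22.2, 23.4, 27.0 and 29.8 CPM in BI01 muscle and 51.6, 36.7, 36.9 and 37.98 CPM in vehicle muscle. Cry1 (-0.57, -0.97 to -0.18; adjusted p = 1.00), Hsph1 (-0.41, -0.75 to -0.07; adjusted p = 1.00) and Ighm (-0.94, -1.72 to -0.16; adjusted p = 1.00) were lower in BI01 muscle by the same measure. These values do not show a difference between BI01 and vehicle, and they do not show that the groups are alike.

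**Figure D4:**
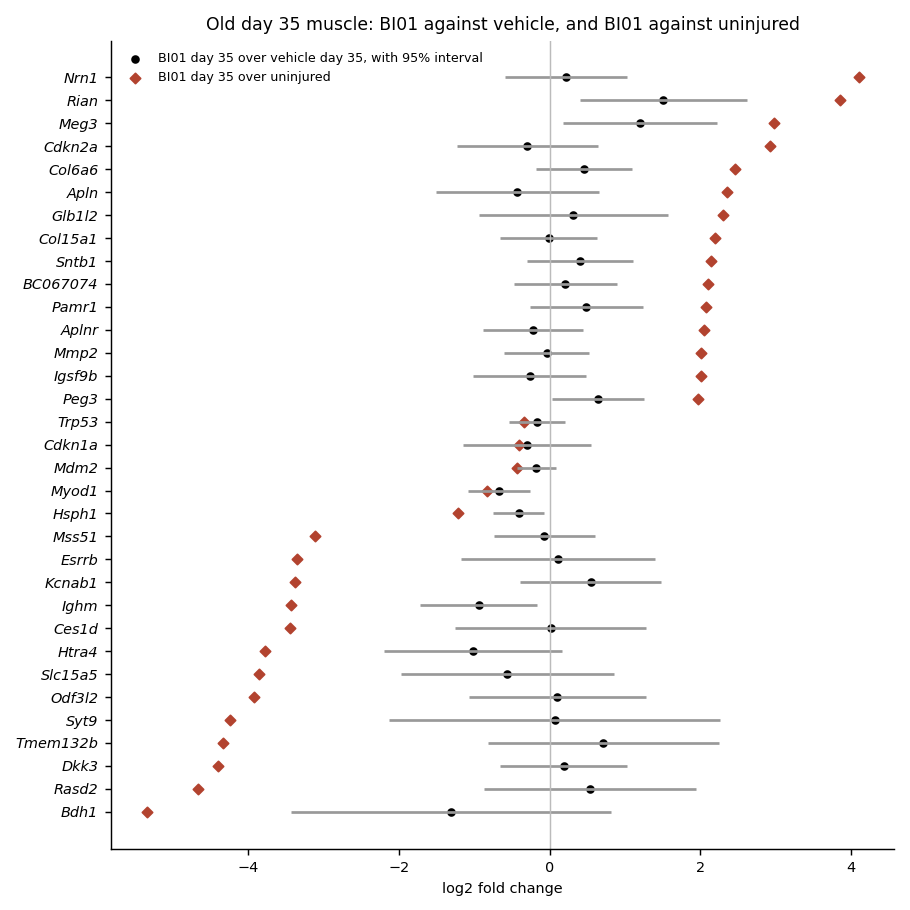
Log2 fold changes of named genes in old muscle (x axis), with diamonds for BI01 day 35 over uninjured, and black points with 95% intervals for BI01 day 35 over vehicle day 35. Diamonds run from -5.35 for Bdh1 to 4.11 for Nrn1, while most of the intervals between BI01 and vehicle cross 0.

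Young muscle offers a comparison that shares no library with the old one. Young vehicle muscle at day 35 differed from young uninjured muscle in 2691 genes (15.7% of those tested), 1209 higher (7.06%) and 1482 lower (8.66%). Of the 776 genes that rose in old BI01 muscle, 745 (96.0%) had a positive log2 fold change in young muscle, against 74.9% of all tested genes that were positive in old BI01 muscle. Of the 610 genes that fell, 569 (93.3%) had a negative one in young muscle, against 61.4% of all tested genes that were negative. Called in the same direction in young muscle were 46.3% of the genes that rose and 64.3% of those that fell. Nrn1 averaged 4.34 ± 1.15 CPM in young muscle at day 35 and 0.0686 ± 0.0859 CPM in young uninjured muscle (SD, n = 4 each). Cdkn2a averaged 4.89 ± 1.88 CPM at day 35 and 0.112 ± 0.0906 CPM without injury in young muscle (SD, n = 4 each), with a log2 fold change of 5.38 (adjusted p = 5.21e-06). Dkk3, Rasd2 and Ces1d were at -3.67, -3.70 and -3.58.

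The difference between the old BI01 response and the young one was tested as a contrast of the 4 groups. No gene passed by edgeR, 0% of those tested, with a smallest adjusted p of 0.262 and 1575 genes at an unadjusted p under 0.05. DESeq2 called 25 genes (14 higher and 11 lower) and limma voom called 0, with 1175 at an unadjusted p under 0.05. The edgeR count was 23 without young uninjured library 4 and 1 without old uninjured library 9. Myh3 had a difference of -6.09 (-9.25 to -2.93; adjusted p = 0.324), since its log2 fold change was -4.16 in old BI01 muscle and 1.92 in young muscle. Cdkn2a had a difference of -2.45 (-4.34 to -0.57; adjusted p = 0.435) and Col6a6 of 1.88 (0.91 to 2.86; adjusted p = 0.324). Ighm had one of -2.48 (-3.57 to -1.39; adjusted p = 0.275), and Igf1 one of 1.34 (0.42 to 2.26; adjusted p = 0.377).

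**Figure D5:**
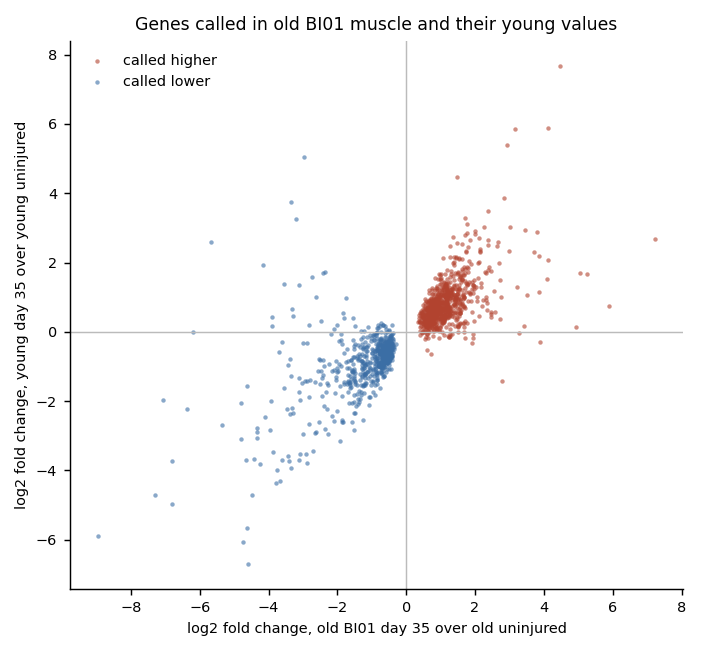
Log2 fold change in young muscle at day 35 over young uninjured (y axis) against that in old BI01 muscle at day 35 over old uninjured (x axis), 1 point for each of the 1386 genes called in old BI01 muscle. Of the 776 genes that rose, 745 lie above 0 on the y axis, and of the 610 that fell, 569 lie below it.

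Set in time, the genes that stayed changed at day 35 followed different courses, given here as means in old uninjured muscle, old BI01 muscle at day 7 and old BI01 muscle at day 35 (SD, n = 4 each). The uninjured libraries belong to the 35-day set, so for day 7 the time and the collection set cannot be told apart. Nrn1 was at 0.2598 ± 0.196, 2.61 ± 1.196 and 5.02 ± 1.29 CPM, with its highest mean at day 35. Cdkn2a was at 0.572 ± 0.306, 3.49 ± 0.745 and 4.62 ± 0.531 CPM, and the SD ranges of its day 7 and day 35 means overlapped. Col4a1 was at 75.4 ± 11.3, 428 ± 98.2 and 278 ± 159.7 CPM, with the highest mean at day 7. Fabp4 was at 74.2 ± 11.3, 81.9 ± 22.3 and 170.2 ± 24.6 CPM, so that its day 7 mean was close to the uninjured one. Dkk3 was at 55.2 ± 32.9, 8.86 ± 1.37 and 2.59 ± 1.197 CPM, and Rasd2 at 112 ± 33.04, 1.86 ± 1.29 and 4.42 ± 2.41 CPM. Both were low at both times after injury.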

How the data were processed

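The deposited table holds whole-number counts of reads per gene for 32 libraries, and the submitters' processing notes name HISAT2 and the build mm10. The sources used here do not give the counting tool, the annotation release or the strandedness. Per the file headers it also lists the Ensembl identifier, symbol, biotype and coordinates of each gene. Columns were matched to groups by their names, but not to single samples, because their numbers differ from those of the sample titles.

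Counts were scaled with TMM in edgeR 4.0.16 (R 4.3.3), filterByExpr kept 17121 genes, and a robust quasi-likelihood model with 1 mean per group was fitted to all 32 libraries (24 residual degrees of freedom). Adjusted p-values of genes are from edgeR's quasi-likelihood F-test with Benjamini-Hochberg adjustment unless DESeq2 1.42.0 or limma voom 3.58.1 is named. Intervals are 95%. The fit was tested on simulated counts.

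The gene lists and the other choices were made with earlier results of these data known. Named genes are the 12 largest rises and 12 largest falls among called protein-coding genes with non-overlapping groups and a mean of 5 CPM or more in 1 of them, up to 3 called members of each of 36 lists, and Cdkn1a, Cdkn2a, Mdm2 and Trp53. Other called list members, the collagen chains, protocadherins, imprinted RNAs and immunoglobulin chains were added after their values were seen. Where 3 symbols belonged to more than 1 identifier, the one with most counts stood for the symbol. Promoter sequences are RefSeq's on GRCm38.p6, and 86.5% of 16494 protein-coding genes of the table start within 1000 bases of a RefSeq start. The alternatives were other scalings and filters, DESeq2, limma voom, a fit of only the compared groups, a replicate block and leaving out each library. Leaving out library 7 of both groups was a further alternative that was not planned. Replicate libraries differed from each other beyond counting noise in every pair.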

Additional observations from a re-analysis of the deposited data

Results flagged for a closer look

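In 322 groups of 4 libraries tested, 17 had a library whose gap to its nearest neighbour, as a share of the group's range, passed Dixon's 95% critical value. Chance gives about 1 such group in 20, and the 17 lie near that rate. No cause was tested.

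Uninjured library 7 was the highest of its group in 5 sums of marker lists. The satellite cell and myogenic regulator genes summed to 610.6 CPM there against 408.2 CPM in the next library. The neuromuscular junction and denervation genes summed to 697.7 CPM against 423.8 CPM. The senescence and secretory genes summed to 2502 CPM against 1676 CPM. The IGF1 pathway genes summed to 3021 CPM against 2130 CPM, and the imprinted growth genes to 1381 CPM against 434.8 CPM. Uninjured library 9 was the highest for Cxcl10, at 5.334 CPM against 0.9954 CPM in the next library, and for Sqstm1, at 1020 CPM against 883.8 CPM. It was the lowest for Col6a6, at 1.04 CPM against 2.321 CPM. Uninjured library 8 was the lowest for Cryab, at 341.5 CPM against 426.7 CPM.

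Among the BI01 libraries, library 6 was the highest for Sesn1, at 81.78 CPM against 29.88 CPM in the next library. Library 7 was the highest for Polk, at 14.41 CPM against 9.11 CPM, and for Hlf, at 4.854 CPM against 2.747 CPM. Library 8 was the highest for Tnnt2, at 6.565 CPM against 2.373 CPM, and for Bdh1, at 0.3349 CPM against 0.1493 CPM, and the lowest for Pcdhb22, at 1.742 CPM against 2.224 CPM. Library 9 was the highest for Col28a1, at 7.604 CPM against 2.445 CPM, and for the sum of regenerating fibre proteins, at 5147 CPM against 3503 CPM. The Col28a1, Hlf and Bdh1 calls held without any single library, while those of Sesn1, Polk, Cxcl10, Sqstm1, Cryab and Tnnt2 did not.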

How the results depend on the processing

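The 1386 calls between old BI01 muscle at day 35 and old uninjured muscle became 1374 with RLE size factors, 1203 with library size alone, 1434 with a filter of 1 CPM in 4 libraries, 950 with no filter, 1782 with DESeq2 and 984 with limma voom. Only the groups compared gave 2380 calls, and 2600 for old vehicle muscle at day 35 against uninjured, where all 32 libraries gave 966. The share of calls that were higher was 56.0% with all libraries, 45.4% with only the groups compared and 45.1% with limma voom. Leaving out 1 library gave 798 to 1367 calls for BI01 muscle, 556 to 885 for vehicle muscle, 0 each time between BI01 and vehicle muscle, and 0 to 23 for the difference from the young response. DESeq2 gave 12 calls between BI01 and vehicle muscle and 25 for the difference from the young response. That difference had 1 call with no filter, 1 with only the groups compared and 1 with the replicate block.

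Libraries of 2 groups share a number, and whether it marks the same animal is not stated. Correlations of their deviations were -0.04, -0.17, 0.01 and -0.09 between BI01 and uninjured muscle. No BI01 library correlated best with its own number there. For old vehicle muscle at day 35 they were 0.01, 0.03, 0.07 and 0.11, and libraries 8 and 9 matched their own number best. For young muscle at day 35 against young uninjured they were 0.16, -0.03, 0.15 and 0.16, and libraries 1, 3 and 4 did so. All fits but the replicate block treat libraries as unpaired. A replicate block on that number, fitted to only the groups compared, gave 1481 calls for BI01 muscle against 2380 in the same libraries without the block, and 2571 against 2600 for vehicle muscle. Genes called in these libraries without the block but not with it included Col1a1, Mmp2, Pdgfra, Cd34, Igf1 and Ighg2c.

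Of the 76 called genes chosen by rule, 40 kept direction and call under every alternative, 76 kept direction, and 27 lost the call without 1 library. Cdkn1a, not called, ran from -0.73 to 0.0045 over the fits without 1 library and was 0.096 without library 7 of both groups. Of 1224 counts of list calls recomputed under an alternative, 241 moved. The cause of these changes was not tested, except that leaving out a library leaves fewer samples. The median interval of ±0.602 is before adjustment over all genes, so for the typical gene a call needed a larger change than that. The same holds for the ±0.601 between BI01 and vehicle muscle, where no gene was called by edgeR.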

Other observations

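The beta protocadherins, cell adhesion proteins best known from neurons and encoded side by side on chromosome 18, rose in a block. This set was drawn up after the values were seen. Of 18 members tested 11 rose and none fell, and the median log2 fold change was 2.13 in old BI01 muscle, 1.77 in old vehicle muscle at day 35 against the same uninjured libraries, and 1.13 in young muscle. Pcdhb17 had 5.11, 3.81, 3.35 and 2.296 CPM in BI01 muscle and 1.14, 1.55, 1.44 and 1.49 CPM in uninjured muscle (1.36 ± 0.31, adjusted p = 0.00471). Pcdhb22 had 2.302, 2.24, 1.74 and 2.22 CPM in BI01 muscle and 0.458, 0.916, 0.8002 and 0.768 CPM in uninjured muscle (1.5 ± 0.30, adjusted p = 0.00184). Pcdhb14, Pcdhb16 and Pcdhb5 also kept their calls without any single library, and the other 6 did not. With limma voom the adjusted p of Pcdhb14 was 0.0809. These genes are close paralogs at low counts, so how reads were split between them is uncertain.

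Immunoglobulin constant chains did not move together. Of 7 tested, 1 rose and 2 fell, with a median of 0.69. The highest log2 fold change of the set, 5.85, belonged to a chain that was not called. Ighg2c, a heavy chain of IgG, had 1.01, 1.79, 0.134 and 2.798 CPM in BI01 muscle and 12.05, 15.4, 22.4 and 11.2 CPM in uninjured muscle (-3.41 ± 0.68, adjusted p = 0.00167), and so lay on the same side as Ighm. Igha, the heavy chain of IgA, had 5.54, 9.11, 4.29 and 6.17 CPM in BI01 muscle and 0, 0.796, 0 and 0.452 CPM in uninjured muscle (4.11 ± 1.19, adjusted p = 0.0288), in the opposite direction. The log2 fold change of Igha was 5.02 without uninjured library 7, and its call was lost without BI01 library 6, 7 or 9 or uninjured library 6, 8 or 9 (adjusted p 0.0549 to 0.0928). Igkc, the light chain gene, was not called.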
